A study of Homo sapiens with 8 samples.

Results

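Transcripts of ABHD5 and of 9 further genes that build, coat or break down lipid droplets were followed in DLD-1 cells, a line of human colorectal adenocarcinoma cells, after transfection with miR-143. The genes were chosen by name, and a probe set, the group of array probes that reads a transcript, was taken where its annotation gave one of these genes and no other. Of the 10 genes 9 had such a probe set, 17 probe sets in all among the 41091 that carry a single gene symbol. No probe set was annotated to ACSL3 here, and this gene was not analysed. Total RNA was collected 24 h after transfection with Lipofectamine from 4 cultures given miR-143 duplex at 50 nM and from 4 mock transfected cultures, and each was measured on its own Affymetrix HG-U133 Plus 2.0 array. Both groups were kept in high glucose medium with serum, and no other line was put on arrays used here. A scrambled duplex array was not used here, so an effect of any duplex and an effect of miR-143 cannot be told apart.

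A lipid droplet is a store of triacylglycerol and sterol esters inside a shell of phospholipid and coat proteins. The lipase PNPLA2 removes the first fatty acid from triacylglycerol, LIPE the next from diacylglycerol, and MGLL the last from monoacylglycerol. ABHD5, also called CGI-58, is not known as a triacylglycerol lipase itself. It is held on droplets by perilipins and, once released, activates PNPLA2, whereas G0S2 blocks this enzyme. The droplets are filled by DGAT1 and DGAT2, which make triacylglycerol, and by acyl-CoA synthetases such as ACSL3, and in many cells they are coated by PLIN2 and PLIN3.

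The transfected RNA mimics the mature miR-143 duplex, and the 2 mature strands are shown because every comparison below is of cells given this duplex or none. Capitals mark the seed, bases 2 to 8, with which a microRNA pairs to its targets. Both strands lie on the plus strand of chromosome 5 in GRCh38.p14, miR-143-3p at chr5:149428978-149428998 and miR-143-5p at chr5:149428944-149428965, and the sequences are from RefSeq.
hsa-miR-143-3p: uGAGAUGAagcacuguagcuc
hsa-miR-143-5p: gGUGCAGUgcugcaucucuggu
The match to the seed of miR-143-3p reads UCAUCUC in a messenger RNA. The seed of miR-143-5p differs, and its match reads ACUGCAC. Coding and untranslated sequences of the lipid droplet genes were not used here, so matches in them were not counted.

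Values are log2 expression after RMA, a method that corrects, scales and summarises the probes of each set, and they were used as deposited. Replicate 4 stood apart from the other arrays in both groups, at 25.7 (miR-143) and 26.7 (mock) on the first principal component against −18.8 to −4.25 for the other 6 arrays. The groups were compared by limma over 19752 genes, each read by its brightest probe set, and p-values were adjusted over all of them. Without pairs 0 genes passed an adjusted p of 0.05 (0%), and an unadjusted p under 0.05 was found for 1.70% of genes on the lower and 0.714% on the higher side. With arrays of the same replicate number taken as pairs, 0.623% of genes were lower and 0.167% higher. The numbers met the limit for pairing only narrowly, and the miR-143 arrays of replicates 1 and 2 correlated better with mock arrays of another number than with their own, so both sets of values are given where they differ and every call made with pairs rests on a pairing that is not firmly established. The epithelial markers EPCAM and CDH1 were high, at 13.40 to 13.99 and 12.58 to 13.23 over the 8 arrays. The intestinal markers were mixed. KRT20 lay at 10.27 to 11.08, CDH17 at 9.7 to 10.04 and CDX2 at 8.04 to 8.66, while LGALS4, VIL1 and CDX1 lay at 6.87 to 7.86. All 10 epithelial markers had a negative log2 fold change, against 10983 of all 19752 genes. Their values lay between −0.32 and −0.0045, and 0 of them were called in either fit. KRT8, at −0.32, was lower in only 2 of 4 pairs. The groups of VIL1 did not overlap, as for 1.24% of all genes on the lower side. The 5 adipocyte markers ADIPOQ, FABP4, LEP, PLIN1 and CIDEC lay between 6.45 and 7.62, and 0 of them were called. That is well below EPCAM and CDH1 but overlaps the range of LGALS4, VIL1 and CDX1. The 5 stromal and blood cell markers COL1A1, COL1A2, DCN, PTPRC and PECAM1 lay between 6.63 and 8.29, and 0 of them were called.

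ABHD5 was lower in every miR-143-transfected culture. Its brightest probe set, 218739_at, read 8.83, 8.93, 8.77 and 9.13 in the miR-143 arrays of replicates 1 to 4, against 9.40, 9.25, 9.31 and 9.51 in the mock arrays. The highest miR-143 array, replicate 4, still lay below the lowest mock array, so the groups did not overlap, as was the case for 1.24% of all genes on the lower side. ABHD5 averaged 8.91 ± 0.16 with miR-143 and 9.37 ± 0.12 in mock transfected cells (SD, n = 4 each), a log2 fold change (miR-143 minus mock) of −0.46 (95% confidence interval −0.66 to −0.25), or 27.1% less transcript signal. The exact permutation test over the 8 arrays gave p = 0.0286 (two-sided), the smallest that 4 arrays against 4 allow. In limma the adjusted p was 0.365 without pairs and 0.00327 with pairs (standard error 0.090 and 0.056), and ABHD5 took place 27 of 19752 genes when ordered from the most negative log2 fold change. With any one pair left out ABHD5 remained lower, with log2 fold changes of −0.50 to −0.42 and adjusted p of 0.0154 to 0.0298. Without pairs it passed in 3 other settings, namely with arrays weighted by their quality (adjusted p = 0.00994, 0.182% of genes lower), after cyclic loess (0.00592, 0.157% lower) and without both replicate 4 arrays (0.0173, 0.152% lower). It did not pass without pairs when genes of low signal (limma adjusted p = 0.33) or genes of low variance (0.999) were filtered out. The arrays read bulk RNA, so less ABHD5 transcript per cell and fewer cells that carry it cannot be told apart. The study picked ABHD5 for quantitative PCR because it was lower on these arrays, so its direction here is not independent evidence. It reports that all transcripts picked in this way were also lower by quantitative PCR. For ABHD5 it reports a miR-143 seed match in the coding region and none in the untranslated region that follows.

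The 4 probe sets of ABHD5 did not give the same size of change. Probe set 213805_at read 7.79, 7.75, 7.76 and 7.97 with miR-143 and 7.99, 7.97, 7.77 and 8.22 in mock, lower in 4 of 4 pairs, as were 10.9% of all genes, although the groups overlapped. Probe set 213935_at read 7.65, 7.69, 7.54 and 7.42 with miR-143 and 7.90, 7.68, 7.79 and 7.76 in mock, lower in 3 of 4 pairs, again with overlap. Their log2 fold changes were −0.17 and −0.21, and neither passed over the 41091 probe sets (adjusted p = 0.303 and 0.254 with pairs). The brightest set passed there too with pairs (adjusted p = 0.00422), where 0.416% of probe sets were lower and 0.110% higher. Averaged over its 4 sets, ABHD5 had a log2 fold change of only −0.20. This average did not pass without pairs, nor did the brightest set, and the average was not fitted with pairs. The remaining set, 232862_at, lay at 6.54 to 6.70 with miR-143 and at 6.51 to 6.66 in mock, a log2 fold change of 0.04. Its mean was above that of only 9.50% of single-gene probe sets, close to the bottom of the scale. Set against the other probe sets within each array, a description added after these values were seen, the brightest set changed by −0.28 relative to 213805_at, by −0.25 relative to 213935_at and by −0.49 relative to 232862_at.

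**Figure D1:**
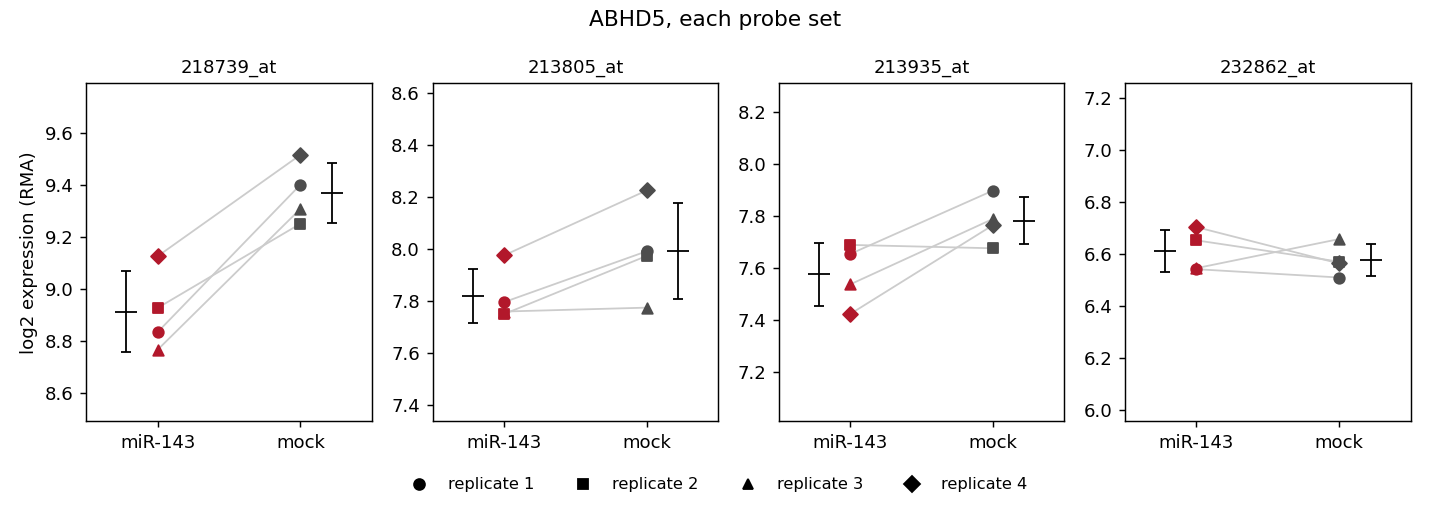
Log2 expression (RMA) of the 4 ABHD5 probe sets, miR-143 arrays on the left of each panel and mock arrays on the right, with a symbol for each replicate number, grey lines between arrays of the same number and bars for the mean ± SD of 4 arrays. All panels span the same number of log2 units. The groups are separate for 218739_at, at 8.77 to 9.13 with miR-143 and 9.25 to 9.51 in mock, and overlap for the other 3 sets.

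PNPLA2, the lipase that ABHD5 activates, did not differ between the groups beyond the spread of the arrays. Its brightest probe set, 39854_r_at, read 10.45, 10.48, 10.59 and 10.30 with miR-143 and 10.58, 10.56, 10.56 and 10.11 in mock. The groups overlapped, and replicate 4 was the lowest array in both. The log2 fold change was 0.0016, with a 95% confidence interval of −0.25 to 0.25 without pairs and −0.13 to 0.13 with pairs. The dimmer probe set, 212705_x_at, whose suffix marks probes that can bind other transcripts, read 7.39, 7.46, 7.48 and 7.73 with miR-143 and 7.43, 7.41, 7.45 and 7.71 in mock. Here replicate 4 was the highest array in both groups, the opposite of the brighter set, while the log2 fold change was again small (0.02). The brighter set also carries a suffix of its own, _r_at, and which set follows the PNPLA2 transcript was not tested. Within arrays ABHD5 lay 1.54 ± 0.27 log2 units below PNPLA2 with miR-143 and 1.08 ± 0.33 below it in mock (SD, n = 4 each, a scale on which only the shift between groups has a meaning). The shift of −0.46 did not pass, with an exact permutation p of 0.114. It was −0.47 with the dimmer PNPLA2 probe set, where all miR-143 arrays lay below all mock arrays and the exact permutation p was 0.0286, the smallest possible. This second comparison was added after the values of both probe sets had been seen.

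G0S2, the inhibitor of PNPLA2, read 7.15, 7.16, 7.06 and 7.0 with miR-143 and 7.17, 6.88, 7.26 and 7.12 in mock. All miR-143 values lay within the range of the mock values, and the log2 fold change was −0.01 (95% confidence interval −0.21 to 0.18). LIPE, the diacylglycerol lipase, read 7.66, 7.59, 7.67 and 7.53 with miR-143 and 7.68, 7.79, 7.62 and 7.53 in mock on its brighter set, with a log2 fold change of −0.04, and its dimmer set gave 0.0035. The groups overlapped on both sets, and the probe sets of G0S2 and LIPE lay at most at percentile 61.5 of all single-gene sets by mean.

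MGLL, which ends the chain by splitting monoacylglycerol, read 9.08, 9.08, 8.94 and 9.14 with miR-143 and 8.98, 8.92, 8.95 and 9.06 in mock on 211026_s_at. It was higher in 3 of 4 pairs, but replicate 3 with miR-143 lay inside the mock range, and the log2 fold change of 0.08 did not pass (adjusted p = 0.669 with pairs). The second MGLL set, 225102_at, pointed the other way, at 8.44, 8.23, 8.23 and 8.37 with miR-143 and 8.28, 8.23, 8.36 and 8.63 in mock, with a log2 fold change of −0.06. The groups overlapped on both sets, and neither change passed.

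Among the coat proteins PLIN2, the perilipin that marks droplets in most cells, was dim in DLD-1 cells. On 215895_x_at it read 7.21, 7.08, 7.08 and 6.98 with miR-143 and 7.14, 7.18, 7.12 and 7.28 in mock, and on 209122_at 6.92, 6.95, 6.86 and 6.82 with miR-143 and 6.85, 6.93, 6.98 and 6.65 in mock. The first of these sets has the same suffix as the dimmer PNPLA2 set. The groups overlapped on both sets, the log2 fold changes were −0.10 and 0.04, and the set means were above those of only 41.2% and 24.5% of single-gene probe sets. A change of PLIN2 would be hard to see at such a signal. PLIN3, which moves between cytosol and droplets, gave a brighter signal of 9.43, 8.99, 8.88 and 9.55 with miR-143 and 9.16, 9.39, 9.09 and 9.54 in mock. It was higher in pairs 1 and 4 and lower in pairs 2 and 3, with a log2 fold change of −0.08 (95% confidence interval −0.44 to 0.28 without pairs and −0.28 to 0.11 with pairs).

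The enzymes that complete triacylglycerol did not change beyond their spread. DGAT1 read 8.13, 7.88, 7.76 and 8.57 with miR-143 and 7.85, 8.20, 8.10 and 8.46 in mock, again higher in pairs 1 and 4 and lower in pairs 2 and 3. Its SD, 0.36 with miR-143 and 0.25 in mock, was the widest of the 9 genes, and its log2 fold change of −0.06 had a 95% confidence interval of −0.46 to 0.34 without pairs. DGAT2, an unrelated enzyme for the same step, varied least, at 7.78, 7.76, 7.76 and 7.70 with miR-143 and 7.79, 7.72, 7.75 and 7.65 in mock on 226064_s_at. Its 2 probe sets gave log2 fold changes of 0.02 and 0.0033, the first with a 95% confidence interval of −0.10 to 0.14.

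Taking each gene by its brightest probe set, 1 of 9 genes was called lower with pairs, ABHD5, and 0 higher, against 0.623% and 0.167% of all genes, and without pairs 0 of 9 were called. The median log2 fold change of the 8 genes other than ABHD5 was −0.03, against −0.01 over all genes, with values from −0.10 for PLIN2 to 0.08 for MGLL. Their adjusted p ran from 0.669 to 0.997 with pairs, and their unadjusted p without pairs from 0.171 to 0.989. These p-values do not show that the 8 genes kept their level, since the confidence intervals of PLIN3 and DGAT1 without pairs reach as far as −0.44 and −0.46.

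**Figure D2:**
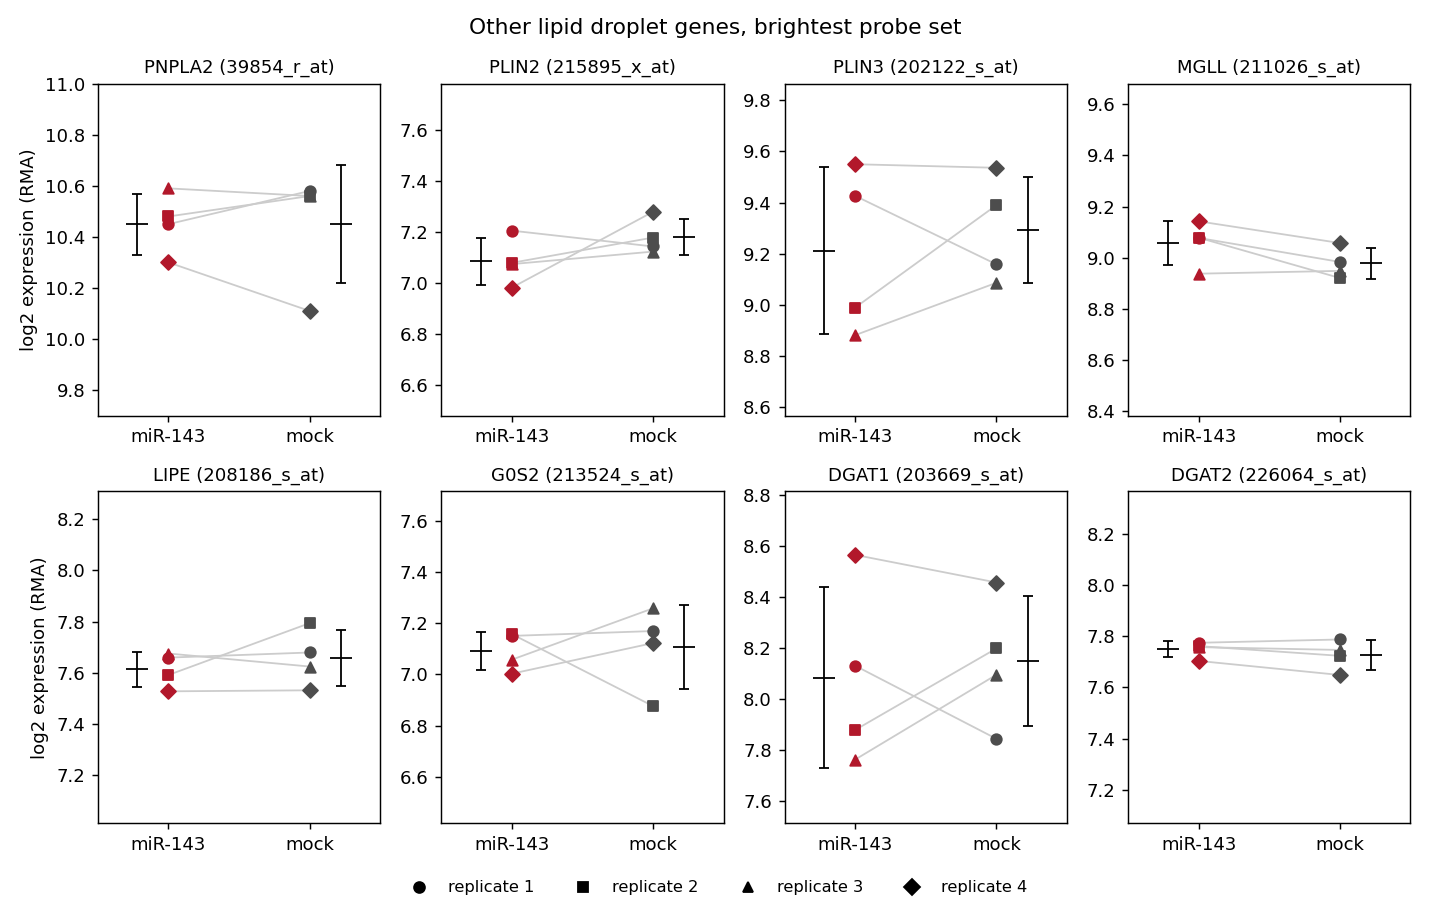
Log2 expression (RMA) of the 8 other genes by their brightest probe set, miR-143 arrays on the left and mock arrays on the right of each panel, with symbols for replicate numbers, grey lines between arrays of the same number and bars for the mean ± SD of 4 arrays. The groups overlap in every panel, replicate 4 is lowest in both groups for PNPLA2, LIPE and DGAT2 and highest in both for DGAT1, PLIN3 and MGLL, and all panels span the same number of log2 units.

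**Figure D3:**
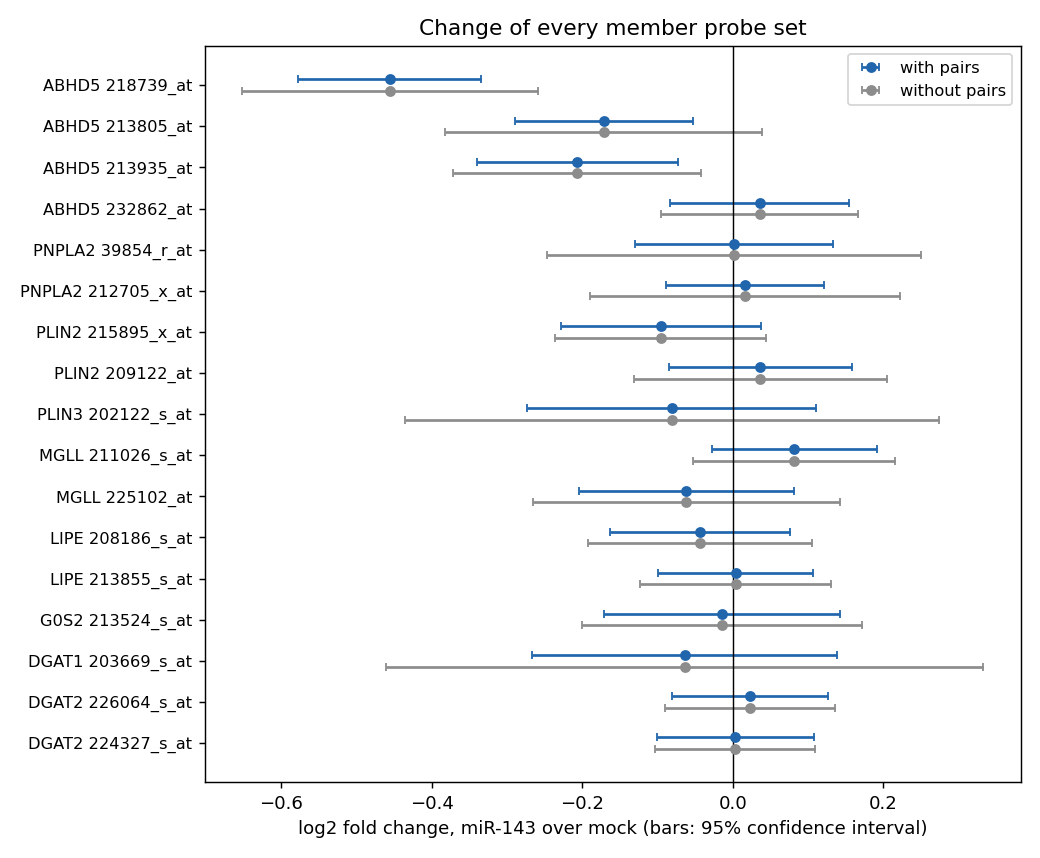
Change of all 17 probe sets in log2 units, miR-143 minus mock, with 95% confidence intervals from limma with pairs (blue) and without pairs (grey). The brightest ABHD5 set, at −0.46, lies apart from the 13 sets of the other genes, which run from −0.10 to 0.08, and its interval does not reach 0 in either fit. The interval of ABHD5 set 213935_at also stays below 0 in both fits, at −0.37 to −0.04 without pairs and −0.34 to −0.07 with pairs. That of 213805_at does so only with pairs (−0.29 to −0.05). The intervals are not adjusted for the number of sets, and neither of these dimmer sets passed after adjustment.

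Genes around these 9 in the same pathways were read from 6 lists of 95 genes in all, of which 89 had a probe set. In these lists 1 gene was called lower and 1 higher with pairs, against 0.623% and 0.167% of all genes, so the counts are too small to set the lists apart from that background. A negative log2 fold change was found for 45 and a positive one for 44, against 10983 and 8769 over all genes, and the median was −0.0021, against −0.01 over all genes. The called genes were HILPDA and PPARA. Without pairs 0 of the 89 were called.

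HILPDA, a droplet protein that is induced by low oxygen and inhibits PNPLA2, was lower with miR-143. It read 9.18, 9.26, 9.13 and 9.33 with miR-143 and 9.40, 9.45, 9.50 and 9.76 in mock, with the highest value in replicate 4 of both groups. The groups did not overlap, as was the case for 1.24% of all genes on the lower side. The log2 fold change was −0.30 (95% confidence interval −0.49 to −0.11 without pairs), with an adjusted p of 0.0369 with pairs, but it no longer passed when any of the 4 pairs was dropped (0.0750 to 0.196). HILPDA stands, under an older symbol, on the study's list of putative targets drawn up from these arrays, so its direction is not independent evidence either. The other 13 measured genes of droplet coat and assembly ran from −0.14 for CIDEA to 0.14 for CIDEB, and none of them was called.

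PPARA, a nuclear receptor that turns on genes of fatty acid oxidation, was higher with miR-143. It read 7.74, 7.84, 7.77 and 7.90 with miR-143 and 7.54, 7.59, 7.55 and 7.52 in mock, without overlap, as was the case for 0.719% of all genes on the higher side. The log2 fold change was 0.26 (95% confidence interval 0.14 to 0.38 without pairs), with an adjusted p of 0.0453 with pairs, but it no longer passed when any of the 4 pairs was dropped (0.134 to 0.223). The mean over all PPARA probe sets gave a log2 fold change of only 0.055. Among the other genes of fatty acid oxidation 0 of 19 were called, with CPT1A, which brings fatty acids into mitochondria, at −0.03.

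In the other 4 lists 0 genes were called. PNPLA4 and PNPLA3, relatives of PNPLA2, had log2 fold changes of −0.21 and −0.12 (adjusted p = 0.297 and 0.475 with pairs). Each was lower in 4 of 4 pairs, as were 10.9% of all genes. The groups of PNPLA3 did not overlap, as was the case for 1.24% of all genes on the lower side. ACSL4, an acyl-CoA synthetase that favours arachidonic acid, read 7.99, 7.96, 8.17 and 7.95 with miR-143 and 7.81, 7.82, 7.76 and 7.83 in mock. Its groups did not overlap, as for 0.719% of all genes on the higher side, but the change did not pass (log2 fold change 0.21, adjusted p = 0.175 with pairs). The mean over all ACSL4 probe sets gave only 0.071. ACSL5, the synthetase typical of intestinal cells, had −0.13 and was lower in 4 of 4 pairs (adjusted p = 0.351 with pairs), but the value was −0.016 without mock replicate 4, −0.26 without miR-143 replicate 4 and −0.066 as the mean over its probe sets. In triacylglycerol and sterol ester synthesis SOAT2 had 0.13 and AGPAT5 −0.14, and in fatty acid synthesis ELOVL5 had −0.10 and FASN, the fatty acid synthase, 0.10, with adjusted p of 0.416 to 0.833 with pairs. SOAT2 and ELOVL5 were dim, at 7.07 to 7.41 and 6.87 to 7.09 over the 8 arrays. As means over their probe sets PNPLA4 had −0.16, PNPLA3 −0.057, SOAT2 0.13, AGPAT5 −0.033, ELOVL5 −0.023 and FASN 0.049.

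**Figure D4:**
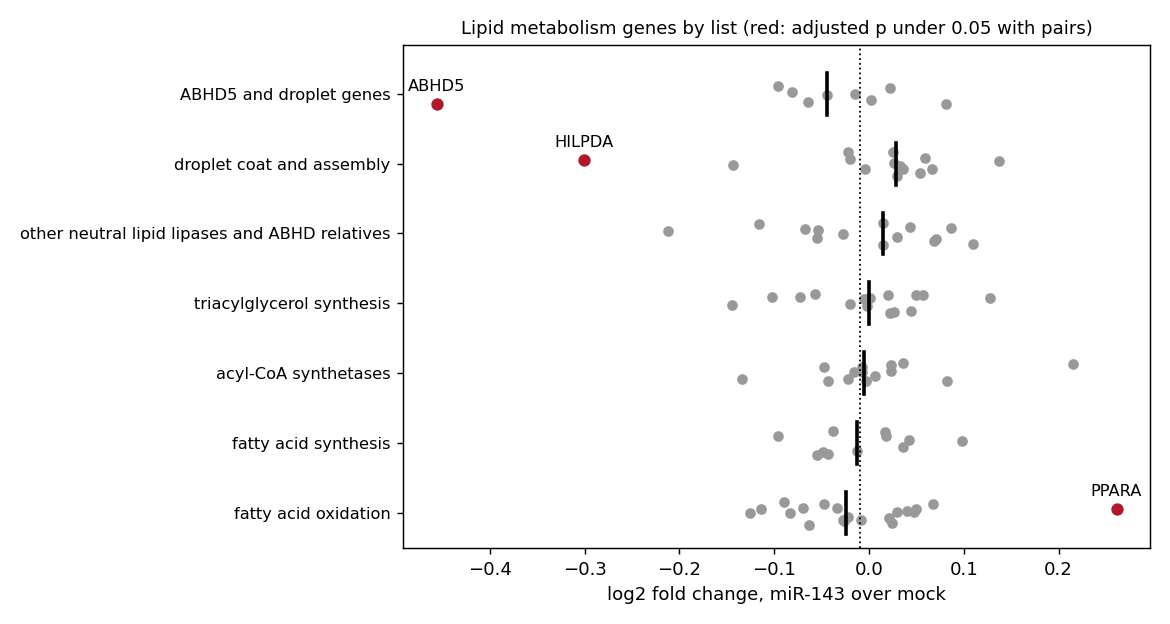
Change in log2 units, miR-143 minus mock, of the 9 genes and of 6 lists of genes around them, a point for each gene at a random height within its row, with red for an adjusted p under 0.05 in limma with pairs, a black bar for the median of each list and a dotted line for the median of all genes, −0.01. ABHD5 (−0.46) and HILPDA (−0.30) lie on the lower side and PPARA (0.26) on the higher side, and the medians of the rows lie between −0.04 and 0.03.

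The genes whose values over the 8 arrays were most like those of ABHD5, each centred on its own mean, were CDC26, a subunit of the anaphase-promoting complex, NETO2, a receptor accessory protein, ATP6V1A, a subunit of the lysosomal proton pump, UBXN2B, a partner of the p97 ATPase, and NOL11, a factor of ribosome assembly. The root mean square difference from ABHD5 was 0.054 to 0.067 log2 units for these 5 genes. Their log2 fold changes lay between −0.50 and −0.36, and all 5 were called lower with pairs, which is given as a description, since genes chosen for a profile like that of ABHD5 share its group difference by that choice. ATP6V1A and UBXN2B passed whichever pair was left out, and both stand on the study's list of putative targets. Among the 8 other measured genes of the set PLIN2 came closest, at 0.234 and place 4722 of all genes in this order, and PNPLA2 was farthest, at 0.348. HILPDA, which is not one of the 8 other genes and was looked up afterwards, was much closer, at 0.111 and place 49. This measure includes the group difference, so a gene already called lower lies nearer to ABHD5 for that reason alone.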

How the data were processed

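The deposited table holds log2 values of 8 Affymetrix arrays, which the authors computed by RMA with affy, per the labels (versions not given in the sources used here). The raw scans were not used here. RMA scales all arrays to a shared distribution and compresses changes of dim probe sets. An array gives no depth, so the number of arrays and the signal over background limit the precision. Gene symbols of the platform annotation were updated through RefSeq. In all, 41091 probe sets had 1 symbol, 1801 several and 11721 none, and 62 were controls. Each of 19752 genes was read by its probe set of highest mean, and a second fit kept all 41091 sets.

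Groups were compared with limma 3.58.1 in R 4.3.3 (lmFit, eBayes, two-sided, Benjamini-Hochberg over all features, threshold 0.05), without and with the replicate number as a block. Exact permutation tests used scipy 1.17.1. The study's methods name 4 biological replicates, and no source used here gives the meaning of a number. The deviations of 2 arrays with one number, each from its own group mean, correlated at 0.11, 0.17, 0.58 and 0.81 across genes, all above the limit of 0.1 set for pairing. However, miR-143 replicate 1 correlated better with mock replicate 3 (0.25), and miR-143 replicate 2 with mock replicate 1 (0.54), than with their own numbers. The same-number value was 0.079 for replicate 1 over all single-gene probe sets, and the values were 0.066 and 0.025 for replicates 1 and 2 after cyclic loess.

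Named genes were the 9 measured members, in each of 6 lists every gene called with pairs or otherwise the 2 of lowest p, and the 5 genes most like ABHD5. CIDEA, CIDEB and CPT1A were named after their values were seen. The members and lists were chosen with earlier results of these data known. The limma script was tested on simulated data drawn independently for each gene and array, so that test does not bear on the pairing.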

Additional observations from a re-analysis of the deposited data

Results flagged for a closer look

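Of 66 groups of 4 arrays checked for a value far from the other 3, 2 were set apart, and chance gives about 1 in 20. Both belong to PNPLA2 in mock replicate 4. Probe set 39854_r_at read 10.11 there against 10.56 to 10.58 in the other mock arrays, and probe set 212705_x_at read 7.71 against 7.41 to 7.45. The 2 sets thus moved in opposite directions in the same array, and in miR-143 replicate 4 they stood at 10.30 and 7.73, the lowest and the highest of their group. Without mock replicate 4 the log2 fold change of PNPLA2 on 39854_r_at was −0.11 (unadjusted p = 0.149) and the shift of ABHD5 relative to PNPLA2 was −0.29. Which of the sets follows the PNPLA2 transcript was not tested.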

How the results depend on the processing

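Without pairs no setting that only left out 1 array called ABHD5, whose log2 fold change ran from −0.53 to −0.41 with adjusted p of 0.132 or more. With the replicate block 123 genes were lower and 33 higher, against 0 and 0 without it, and over probe sets 171 were lower and 45 higher, against 1 and 0. The counts were 36 and 20 with array weights, 31 and 21 after cyclic loess, and 30 and 13 without both replicate 4 arrays. With the block and 1 pair left out, 57, 68, 33 and 42 genes were lower and 16, 11, 9 and 16 higher for pairs 1 to 4. ABHD5 had −0.46 with the block, −0.46 with weights, −0.43 after loess and −0.48 without both replicate 4 arrays, and with the block −0.42, −0.50, −0.43 and −0.48 with pairs 1 to 4 left out, and passed in all of these. Its dimmest probe set 232862_at turned the sign, to 0.035. Relative to PNPLA2 the shift was −0.21 with means over probe sets and −0.47 with the dimmer PNPLA2 set, both with an exact permutation p of 0.0286, and −0.29 without mock replicate 4. The cause of these differences was not tested.

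Signs of small changes were not stable. PNPLA2 had −0.063 with array weights and −0.062 without both replicate 4 arrays, and with the block −0.0088 without pair 3 and −0.062 without pair 4, and with 1 array left out it ran from −0.11 to 0.053. G0S2 had 0.038 with weights and 0.020 without both replicate 4 arrays, and with the block 0.047 without pair 3 and 0.020 without pair 4, and ran from −0.092 to 0.036 with 1 array left out. PLIN3 had 0.026 and LIPE 0.0089 with the block without pair 2, and they ran from −0.19 to 0.029 and from −0.086 to 0.0017 with 1 array left out. DGAT1 had 0.021 and 0.025 with the block without pairs 2 and 3, and ran from −0.22 to 0.043 with 1 array left out. DGAT2 ran from −0.0035 to 0.043. FASN had −0.010 without both replicate 4 arrays and with the block without pair 4. PLIN2 and MGLL kept their sign in every setting of the fit over genes that held them, but their dimmer probe sets had the opposite sign (0.04 for PLIN2 and −0.06 for MGLL). Besides ABHD5, the block changed the call of HILPDA, PPARA and the 5 genes most like ABHD5, and of no other named gene. HILPDA and PPARA passed in no other setting. Among the measured members, a filter on dim probe sets (7.305) left out PLIN2 and G0S2, and a filter on the interquartile range (0.25) left ABHD5, DGAT1 and PLIN3. The filter on dim probe sets also left out SOAT2 and ELOVL5. Probe sets near the background limit what can be seen. They are those of PLIN2 and G0S2, 1 each of ABHD5 and LIPE, and the brightest sets of SOAT2 and ELOVL5.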
